A study of Mus musculus with 2 samples.

Results

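The cells described here, called Ucma/Smoc1 cells, were 130 of the 23878 cells kept from 2 single-cell libraries of mouse ear skin, 88 of 12213 in the control library and 42 of 11665 in the library of allergic contact dermatitis (ACD). They were chosen by a rule on their own counts of unique molecular identifiers (UMIs, one per captured RNA molecule). A gated cell was a kept cell with no UMI of Ptprc (the pan-leukocyte antigen CD45) or Pdgfra (a fibroblast receptor), and at least 3 UMIs of the cartilage genes Comp, Col9a1, Hapln1 and Cilp2 together. This gate left 4656 cells, 2925 in the control and 1731 in the ACD library. Each was scored on 5 sets of 4 genes, as the mean of ln(1 + UMIs per 10000) over a set, and a Ucma/Smoc1 cell had its highest score, of at least 0.5, on set U (Ucma, Smoc1, Fbln7 and Prss23). The other sets were M (Acan, Col9a3, Corin, Dgat2), P (Msmp, Trf, Cytl1, Wif1), A (Angptl7, Cilp2, Cyp26a1, Itgbl1) and G (Gdf5, Scara3, Mpped2, Atp6v0a4).

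The study compared healthy ear skin with ear skin in which ACD had been elicited, to find which cells take part in the response. Both libraries came from ICR mice, an outbred stock, aged 7 to 8 weeks. The ACD mice were male, by the methods, and were sensitised on the back with the hapten dinitrofluorobenzene (DNFB) and later challenged with it on the ears, whereas the control is labelled healthy. The minced skin was digested with collagenase D and DNase1, and whether a library held 1 animal or several is not given in the sources used here. With 1 library per group there was no replicate and no test of ACD against control: cells of 1 library are not replicates. Levels are UMI counts per 1000000 UMIs of the cells (CPM), and all intervals in parentheses are exact 95% intervals of counting error only.

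Ear cartilage is an elastic cartilage whose chondrocytes lie in a matrix of type II collagen, aggrecan and elastin, and it is wrapped in perichondrium, a fibroblast-rich layer that holds the precursors of chondrocytes. UCMA is a small secreted protein of cartilage with vitamin K-dependent Gla residues, and SMOC1 is a secreted SPARC-family protein that modulates BMP signalling. FBLN7 is a matrix protein of the fibulin family and PRSS23 a secreted serine protease. Most nucleated cells answer interferons by making more MHC class I, its light chain B2m and the immunoproteasome, and promoters of such genes often carry the GAS and ISRE elements bound by STAT and IRF factors.

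In the comparison of the libraries, 15 genes of the interferon-response and MHC class I lists were at least 2-fold higher in the Ucma/Smoc1 cells of the ACD library, where 1.35% of all 3109 genes measured were, and 12 of the 15 had a window in the RefSeq promoter table (GRCm38.p6). The 250 bases before the start were searched on both strands for the letters TTCNNNGAA (GAS) and for GAAA followed after any 2 bases by GAAA (ISRE). One or both were present for 6 of the 12 genes, in 6 of their 13 windows (46.2%), against 9.66% of all 32851 windows (GAS 7.02%, ISRE 2.98%). The stretches that hold the matches are shown 5′ to 3′ on the gene's strand, since these genes were among the 15, with the matched letters in capitals. Where the reverse strand matched, the capitals are its complement.
B2m, chr2:122147528-122147577, plus strand: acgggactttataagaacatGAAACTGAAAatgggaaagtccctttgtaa
Bst2, chr8:71537567-71537628, minus strand: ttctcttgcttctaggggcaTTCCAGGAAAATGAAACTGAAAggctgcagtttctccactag
H2-T23, chr17:36032796-36032845, minus strand: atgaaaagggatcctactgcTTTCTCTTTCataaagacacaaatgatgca
Igtp, chr11:58199491-58199551, plus strand: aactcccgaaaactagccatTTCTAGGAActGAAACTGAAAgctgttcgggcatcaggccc
Psmb8, chr17:34198078-34198126, plus strand: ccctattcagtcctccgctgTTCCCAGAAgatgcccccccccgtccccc
Samhd1, chr2:157135303-157135346, minus strand: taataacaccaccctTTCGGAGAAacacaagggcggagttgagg
B2m, Bst2 and Igtp each held the ISRE letters GAAACTGAAA. In Bst2 3 matches overlapped, and in Igtp the GAS and ISRE letters lay side by side. A match is a description of letters only, and no match in this window says nothing of a factor.

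Ucma/Smoc1 cells made up 0.721% (0.578 to 0.887) of kept cells in the control and 0.360% (0.260 to 0.486) in the ACD library. Over gated cells, the shares were 3.01% (2.42 to 3.69) and 2.43% (1.75 to 3.27), with intervals that overlapped. Ptprc-positive cells took 7.95% of kept cells in the control and 35.9% in the ACD library, so the first pair of shares stands on a different mixture of cells. The cells were well sampled, with a median of 7061 UMIs (1203 to 21960) in the control and 8913 (4290 to 19724) in the ACD library, 681321 and 391159 UMIs in all. Their median mitochondrial share was 2.83% and 3.08%. The deposited libraries held 12895 and 13163 barcodes with 99037698 and 126566870 UMIs. They had 50 barcodes in common, 0 of them among the Ucma/Smoc1 cells.

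The 4 genes of set U carried the rule, so their levels are a description. Ucma (ENSMUSG00000026668, chr2:4976122-4985748 on GRCm38) stood at 1287 CPM (1203 to 1375) in the control and 1416 (1301 to 1539) in the ACD library. Set A came next with 747 and 403, and Pdgfra-positive cells outside the gate were lowest with 14.7 and 23.9. Smoc1 (chr12:81026808-81186414) was 343 (301 to 390) and 243 (196 to 297). Prss23 (chr7:89507783-89527187) was 878 (809 to 951) and 1084 (983 to 1192). Fbln7 (chr2:128862981-128897034) was 279 (241 to 321) and 463 (398 to 535).

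**Figure D1:**
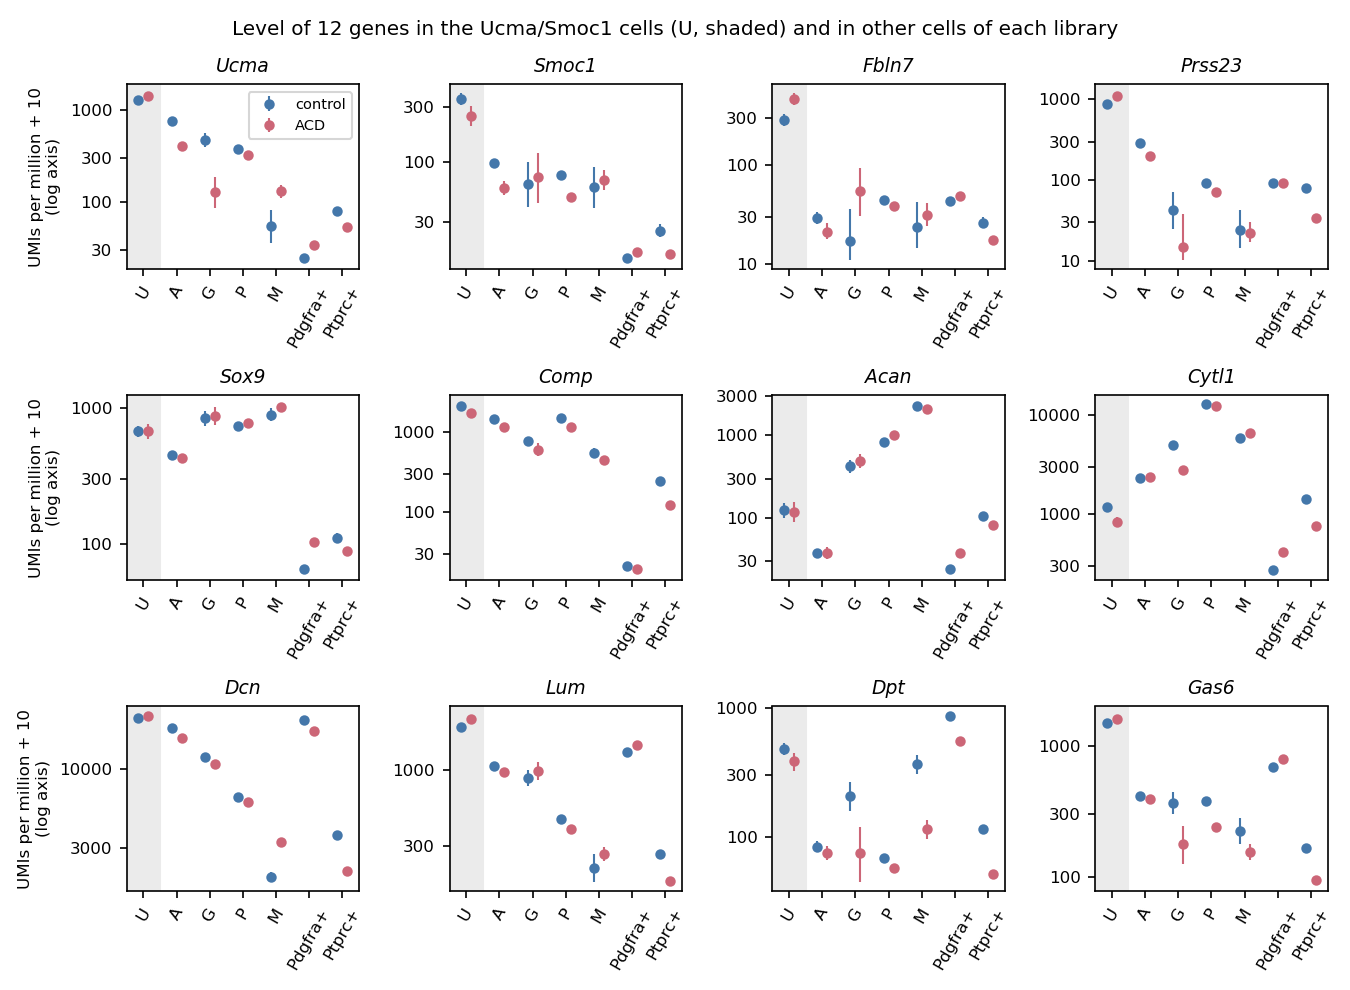
CPM (plus 10, log axis) of 12 genes in the 5 gated sets and in Pdgfra-positive and Ptprc-positive cells, for the control and the ACD library, with bars giving exact 95% Poisson intervals. Ucma stood at 1287 and 1416 in Ucma/Smoc1 cells, Sox9 at 663 and 662, and Acan at 114 and 110, against 95.5 and 72.0 in Ptprc-positive cells and 2226 and 2073 in set M.

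Droplets also catch free RNA. Values in Ptprc-positive leukocytes, which should lack cartilage genes, served as a guide to it and are called the free-RNA level here. Whether they hold free RNA only was not tested, and for some genes Ucma/Smoc1 cells were below them. In Ptprc-positive cells Ucma was 70.1 and 43.6 CPM, and Prss23 was 69.4 and 24.1. After thinning each cell to 2000 UMIs, which left out 1 control cell, 75.9% and 69.0% of Ucma/Smoc1 cells had a Ucma UMI (90.9% and 83.3% unthinned). The thinned share in Ptprc-positive cells was 3.52% and 2.44%. Smoc1 was found in 54.0% and 35.7% of thinned Ucma/Smoc1 cells, against 1.43% and 0.548% of Ptprc-positive cells. These shares were fixed by the choice of the cells and are given for their size only.

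Members did not all carry the whole set. In the control library 29 of 88 cells had UMIs of all 4 genes, 48 had 3 and 11 had 2. In the ACD library 19 of 42 had all 4, 16 had 3 and 7 had 2. The U score had a median of 1.55 (0.679 to 2.60) and 1.59 (0.656 to 2.74). The next highest score of the same cells was 1.22 and 1.06 in the median, so most members scored well on a second set too. That second set was P for 43 control and 21 ACD cells and A for 38 and 12. Close to the edge of the rule, 14 and 8 members led by under 0.1, while 17 and 10 cells of other sets trailed by as little. At the gate, 7 and 4 members had exactly 3 UMIs of its genes and 12 and 4 other cells missed it by 1 UMI.

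In genes the rule did not use, most neighbours of the members were cells of other sets. Among a cell's 20 nearest neighbours in 30 principal components of the gated cells, with the rule's genes left out, a mean of 18.9% in the control and 19.0% in the ACD library were members, who were 3.01% and 2.43% of the cells to draw from. P cells made up 57.0% and 58.1% of the members' neighbours, below their 75.1% and 72.3% of the gated cells. A cells made up 21.9% and 21.4% of the members' neighbours. For A cells, 78.4% and 76.3% of the neighbours were A cells, who were 18.4% and 17.2% of the gated cells. Only 1 control member and 0 ACD members had members as at least 50% of their neighbours. Pdgfra decided many cells: 150 control and 92 ACD cells, with U strictly highest, met every other condition but had a Pdgfra UMI, 65 and 34 of them exactly 1.

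Cartilage genes gave a mixed picture. Sox9, the transcription factor that drives the chondrocyte programme, was 663 CPM (604 to 727) in the control and 662 (584 to 748) in the ACD library, and was found in 87 of 88 and 42 of 42 cells. In Ptprc-positive cells Sox9 was 101 and 78.3. Comp, a cartilage matrix glycoprotein that the gate selects for, was 2108 and 1698. Acan and Cytl1 are given as a description only, since the rule selects against them through sets M and P. Acan, the aggrecan core protein, was 114 (90.5 to 143) and 110 (79.6 to 148), against 95.5 and 72.0 in Ptprc-positive cells and 2226 and 2073 in set M. In thinned cells its share was 20.7% (12.7 to 30.7) and 23.8% (12.1 to 39.5), against 4.84% and 4.06% of Ptprc-positive cells. Cytl1, a secreted factor of chondrocytes, was 1158 and 823, against 1407 and 745 in Ptprc-positive cells and 12738 and 12170 in set P. Col2a1, the chain of type II collagen and outside the rule, was 169 (139 to 203) and 330 (275 to 392), against 59.5 and 45.7, yet was found in 17 and 11 cells, with 60% of its control UMIs in 1 cell. In thinned cells its share was 5.75% (1.89 to 12.9) and 16.7% (6.97 to 31.4), against 3.41% and 2.89% of Ptprc-positive cells. In the control it was thus not told apart from the free-RNA level.

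Col11a2 was 14.7 and 43.5 CPM, against 24.3 and 18.9 in Ptprc-positive cells. The chondrocyte membrane gene 3110079O15Rik (Snorc) was 27.9 and 56.2, against 107 and 100 there. Of the defining genes given here that the rule did not use, Sox9 was above the free-RNA level in both libraries and Col2a1 clearly so only in ACD. 3110079O15Rik was below it in both, and Col11a2 was below it in the control and above it in ACD. The defining genes Col9a2, Col11a1, Matn1, Matn3, Matn4 and Lect1 are not reported here. The 25 cartilage matrix genes found in the annotation and not used by the rule summed to 34891 and 35484, of which Dcn made up the larger part. The same sum was 22666 and 23420 in set P, 33128 and 30688 in set A, 15728 and 18829 in set M and 25788 and 23006 in Pdgfra-positive cells, so set M was below Pdgfra-positive cells on it. Dcn also differed between such groups, by the levels given below, so the order of these sums leans on Dcn. The sums without Dcn are not reported here. As the defining genes given here were divided, the cells are called by their leading genes.

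Some genes of fibrous connective tissue were high. Of 11 measured genes of the fibroblast list, 3 were at least 2-fold higher in both libraries than in the other 4 sets pooled. Of all 10667 genes measured, 0.609% were. Dcn, which encodes the collagen-binding proteoglycan decorin, was 21548 and 22132 CPM, close to the 20775 and 17605 of Pdgfra-positive cells and well above the 6465 and 6060 of set P. Lum, a related proteoglycan, was 1958 and 2216, against 447 and 384 in set P. Set A shared it: in thinned cells Lum was found in 87.4% and 81.0% of Ucma/Smoc1 cells and 72.4% and 68.7% of set A. The same share was 78.8% and 73.8% in Pdgfra-positive cells and 43.2% and 38.8% in set P. Summed over the 12 genes of the fibroblast list, the level was 29480 and 27748, near the 24612 and 21688 of set A, above the 17015 and 14921 of set G and the 9621 and 8256 of set P, and below the 60528 and 44127 of Pdgfra-positive cells. Pdgfra is on that list and was 0 by the rule.

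Lists of other cell types were low except those of blood and leukocytes. The endothelial list summed to 4.40 and 2.56 CPM with Cdh5 at 0 in both libraries, the mural list to 36.7 and 25.6, the glia and melanocyte list to 13.2 and 12.8, and the keratinocyte list to 117 and 94.6, the last below the 325 and 203 of Ptprc-positive cells. The leukocyte list of 16 genes was 67.5 in the control, with 10 genes at 0, and 989 in the ACD library, with 2 at 0. Per cell it had a median of 0 (0 to 1170) and 212 (0 to 12954), and in Ptprc-positive cells the sum was 8736 and 10819. Cd74 (218 UMIs) and Srgn (101) led it in the ACD library, while the defining genes Cd3e, Laptm5, Tyrobp and Lyz2 had 1, 4, 11 and 1 UMIs. Of the other defining genes, Ptprc was 0 by the rule and Cd52 is not reported here. The haemoglobin and red blood cell list was 92.5 and 30952, with 2 ACD cells above 1% haemoglobin. Their part in the differences between the libraries was not tested. Values without single cells, or the share of UMIs in 1 cell, are given beside genes they touch.

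Set against the cells of M, P, A and G pooled, 65 of 10667 genes (0.609%) were at least 2-fold higher in Ucma/Smoc1 cells in both libraries and 133 (1.25%) at least 2-fold lower, on a scale with 10 CPM added. The sets were drawn from the same cells that are compared, so these ratios describe the cells and carry no test. The counts include genes that the rule fixed, all 4 of set U among the higher genes and 4 of set M, 4 of P, 1 of A, 1 of G and 2 of the gate among the lower. With the rule's genes left out of the ranking, Dpt, the dermatopontin gene of fibroblasts, led with log2 ratios of 2.62 in the control and 2.57 in the ACD library. Adamtsl1, a secreted ADAMTS-like glycoprotein, followed with 2.48 and 2.65. Gas6, a vitamin K-dependent ligand of the TAM receptors and so a Gla protein like UCMA, had 1.95 and 2.60 (1477 against 375 CPM in the control, 1572 against 251 in ACD).

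Insulin-like growth factor binding proteins were among the 15 leading genes outside the rule, with Igfbp2 at 1.44 and 2.40 and Igfbp5 at 1.58 and 2.02. Igfbp5 was as high in set A, at 2681 and 2915 CPM against 2240 and 2848 in Ucma/Smoc1 cells. Svep1, an adhesion protein, had 1.91 and 1.66, and Vcam1, an adhesion receptor for leukocytes, 1.48 and 1.84. Vgll3, a transcriptional cofactor of TEAD factors, had 2.23 and 1.89. The protease gene Adamts1 had 1.73 and 1.65 and Mme, a membrane protease, 1.70 and 1.52, and Lum, Fam124a, Dapk1, Tppp3 and Limch1 ranged from 1.44 to 2.17 over both libraries.

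Among the lower genes, Prg4, the lubricin of cartilage surfaces, had log2 ratios of -4.74 and -4.98, with 1.47 and 15.3 CPM in Ucma/Smoc1 cells against 296 and 789 in the pooled sets. 3110079O15Rik was at -4.85 and -4.46, and Notum, a secreted inhibitor of Wnt ligands, at -3.68 and -3.79. Fxyd3, a regulator of the sodium pump, was at -3.76 and -2.96. Trpv4, an ion channel that senses load in chondrocytes, was at -2.41 and -2.49. The other 5 of the 10 lowest outside the rule, Ncmap, Mfi2, Grm4, Gm525 and Gpc6, ranged from -3.25 to -2.23. Of 23 measured genes of the cartilage matrix list that the rule did not use, 2 were higher and 8 lower in both libraries. Of all genes, 0.609% were higher and 1.25% lower. The medians of the list were -0.71 and -0.25, where all genes had 0.03 and -0.04. Eln, the elastin gene of elastic cartilage, was at -1.99 and -2.06.

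**Figure D2:**
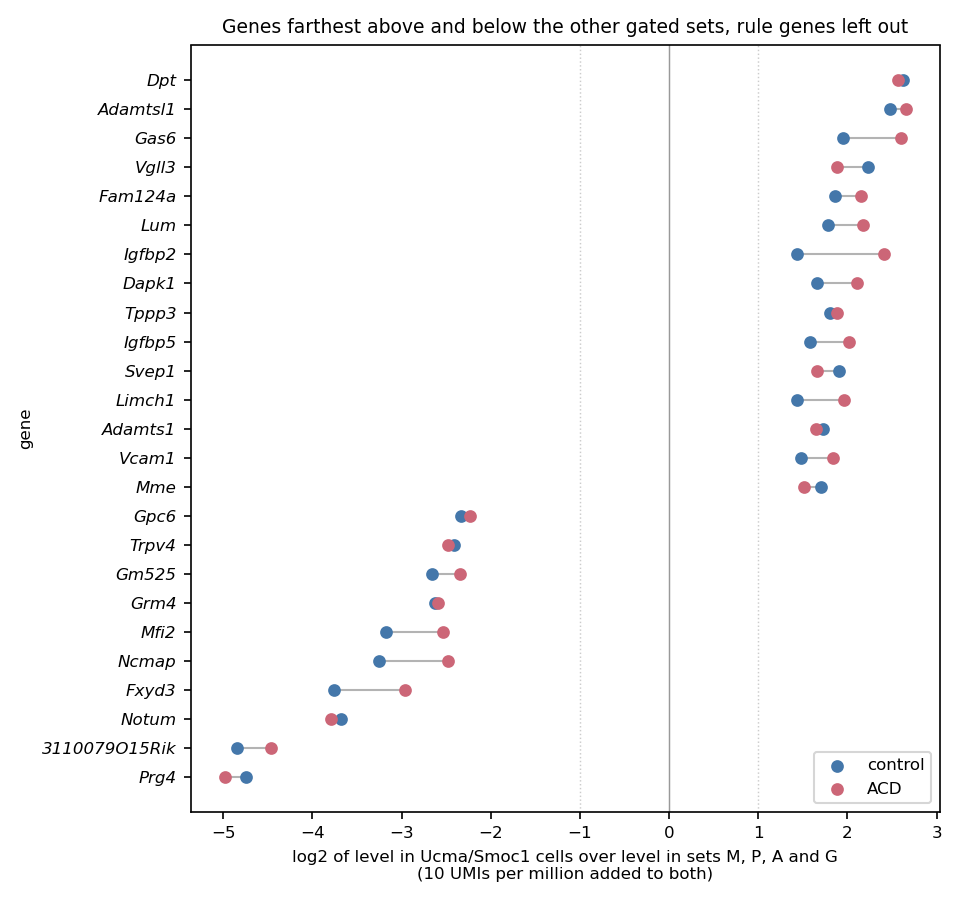
Log2 ratio of CPM (10 added) in Ucma/Smoc1 cells over the pooled cells of sets M, P, A and G, for the 15 highest and 10 lowest genes once the rule's genes were left out, with 1 point per library. The libraries' points lie on the same side of 0 for each gene, close together for Dpt (2.62 and 2.57) and farther apart for Igfbp2 (1.44 and 2.40) and Fxyd3 (-3.76 and -2.96).

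Over the 10 combinations of set and library, the level of Epha2, an ephrin receptor, followed that of Ucma most closely, with a Pearson correlation of 0.97. Dnajc24 and Tmem135 had 0.96, and Ifnar2, a chain of the type I interferon receptor, and Calcrl, the calcitonin receptor-like receptor, 0.95. These values describe 10 points that share libraries and depth, and these genes had far fewer UMIs than Ucma.

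For ACD against control, 3109 genes had at least 50 UMIs in the Ucma/Smoc1 cells, and 42 (1.35%) were at least 2-fold higher and 53 (1.7%) at least 2-fold lower in the ACD library, with 10 CPM added. The median log2 ratio of all genes was -0.12, so ratios are read against that, and they follow in parentheses after each gene or its values. The higher genes included 8 of 13 measured genes of MHC class I and its peptide supply and 8 of 16 of the interferon response. They also held 6 of 11 of complement and the acute phase, and the lower genes 4 of 15 collagens. A gene scarce in 1 library can reach 50 UMIs only through the other, so these counts are partly set by that limit. Of the 42 higher genes, 33 were still called when each library's cell with the most UMIs of the gene was left out, 22 had UMIs in at least 50% of ACD members, and 9 had over 50% of their UMIs in 1 cell. Of the 53 lower genes, 46 were still called without such cells.

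**Figure D3:**
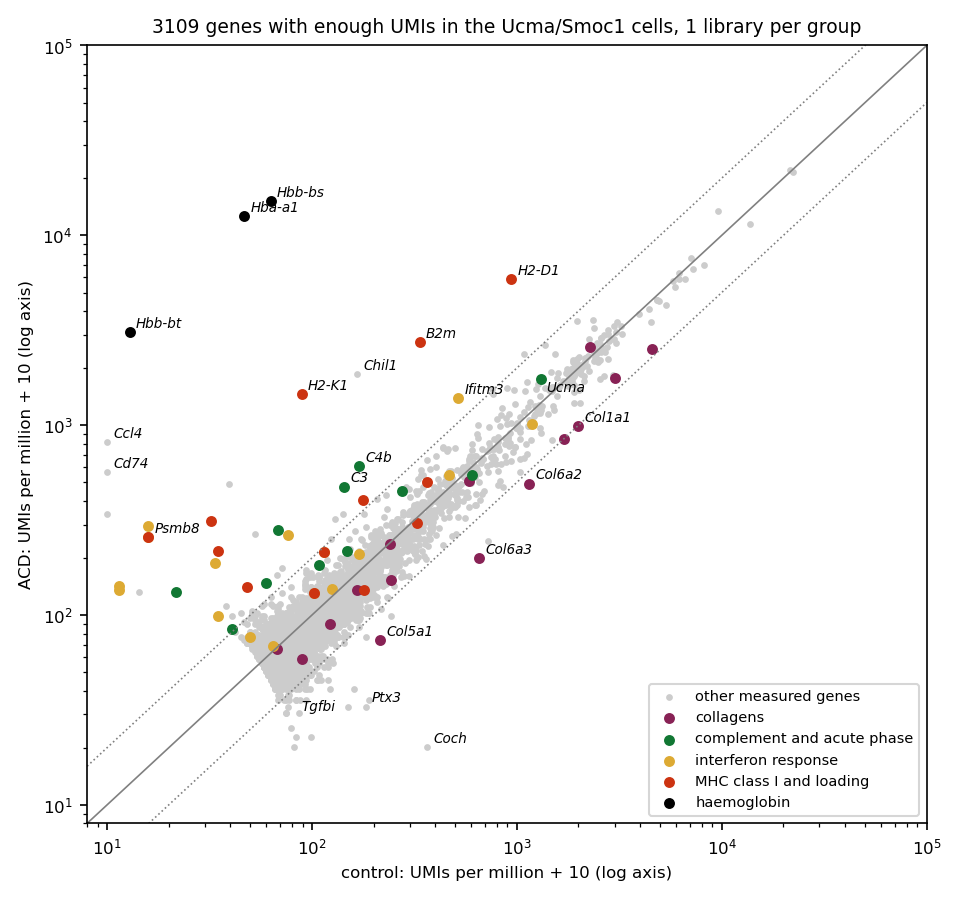
CPM (10 added, log axes) of 3109 genes in the Ucma/Smoc1 cells of the control (x) and the ACD (y) library, 1 point per gene, with listed groups coloured and dotted lines at 2-fold. Of all points, 42 lie on or above the upper line and 53 on or below the lower one.

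MHC class I genes were higher in most cells of the ACD library. H2-K1, a classical class I heavy chain (ENSMUSG00000061232, chr17:33996017-34000347), had 79.3 CPM (59.5 to 103) in the control and 1442 (1325 to 1566) in the ACD library, a log2 ratio of 4.02. It was found in 30 of 88 and 41 of 42 cells. In thinned cells H2-K1 was found in 12.6% and 81.0%, against 54.6% and 93.9% of Ptprc-positive cells. Its level per cell was 0 in the median and 5.09 per 10000 at most in the control, and 12 in the median (0 to 64.9) in ACD, with 34 of 42 ACD cells above the highest control cell. B2m, the light chain (ENSMUSG00000060802, chr2:122147686-122153083), was 326 (284 to 372) and 2741 (2579 to 2910), a log2 ratio of 3.03, and 36 of 42 ACD cells were above the highest control cell. Only 1 ACD cell had no H2-K1, and all 42 had B2m.

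H2-D1, the other classical heavy chain, was 929 and 5880 CPM (2.65). H2-Q4 (3.28) and H2-T23 (2.63), non-classical class I genes, were higher too. Class I genes are near-identical in places, so the split of UMIs between them is uncertain. Psmb8, a catalytic subunit of the immunoproteasome that trims peptides for class I, had 4 UMIs in 3 control cells and 97 in 27 ACD cells (5.87 and 248 CPM, 4.02). The peptide transporter Tap2 (26 and 51 UMIs, 1.54) and its partner tapasin, Tapbp (114 and 155 UMIs, 1.2), differed less. In all, 8 of 13 measured genes of the class I list (22 listed) were at least 2-fold higher and 0 lower, with a median of 1.54. Genes such as Psmb8 and Tap2 reached 50 UMIs only through the ACD library, so this count and median are partly set by that limit. The list summed to 2712 and 13000 CPM. The same sum was also higher in the ACD library in Ptprc-positive cells (6341 and 14538) and in Pdgfra-positive cells (3681 and 14934). The chaperones Calr (0.46), Pdia3 (-0.08) and Canx (-0.41) did not pass 2-fold.

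Of 16 measured genes of the interferon list (65 listed), 8 were at least 2-fold higher and 0 lower. The median of the 16 was 1.17, and 0.72 when each gene's top cell in each library was left out. Genes such as Igtp, Iigp1, Psmb8 and Bst2 reached 50 UMIs only through the ACD library, so the count and the median are partly set by that limit. Psmb8 is on both lists. The GTPases Igtp (4 and 111 UMIs, 4.21) and Iigp1 (1 and 49 UMIs, 3.56), which act on vacuoles of pathogens, were found in 12 and 10 of 42 ACD cells. A single ACD cell held 49.5% of the Igtp UMIs, and the ratio was 3.44 without the top cells. Bst2, which tethers budding viruses (16 and 70 UMIs, 2.50), and Ifitm3, which blocks viral entry (509 and 1381 CPM, 1.42), were found in 25 and 42 of 42 ACD cells. Ly6e was at 1.80 and Samhd1 at 1.51. Ifitm1 (3.64) had 96.2% of its ACD UMIs in 1 cell.

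Irf1, an IRF factor, had 310 and 210 UMIs, a log2 ratio of 0.23. Cxcl9 had 0 and 1 UMI, and Cxcl10 0 and 11, in 4 cells. Gbp2 had 3 and 23 UMIs, and Isg15 9 and 37. Ciita, the master regulator of MHC class II, had 0 UMIs in both libraries. Of the receptor list, Ifngr1 was at -0.70, Jak1 at -0.66 and Ifnar2 at 0.12.

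Cd74, the invariant chain that pairs with MHC class II, had 0 UMIs in the 88 control cells and 218 in 20 of 42 ACD cells. That is 0 (0 to 5.41) and 557 (486 to 636) CPM, at least 126.6-fold higher in ACD when 3 UMIs are taken for the control library. It was highest in Ptprc-positive cells, at 2759 and 1793 CPM. In thinned cells, a Cd74 UMI was found in 0 of 87 control cells (0 to 4.15%) and in 35.7% (21.6 to 52.0) of ACD cells. The same share was 9.90% and 17.0% in Ptprc-positive cells, 0.548% and 17.8% in set P, 0.56% and 27.6% in set A and 1.15% and 9.63% in Pdgfra-positive cells. The class II chain H2-Ab1, named after its values were seen, had 3 UMIs in 3 control cells and 48 in 15 ACD cells (3.20). Whether these UMIs came from the cells themselves or from leukocyte RNA in the droplets was not tested.

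The complement and acute-phase list had 6 of 11 measured genes at least 2-fold higher and 0 lower, with a median of 1.04 (29 listed). C3, the central component, was 134 and 465 CPM (1.73), found in 26 and 25 cells. C4b was 160 and 601 (1.85), found in 27 of 88 and 34 of 42 cells. The C1 protease C1s1 was 58.7 and 271 (2.03), with C1ra at 1.31 and C1rb at 1.04. C1ra and C1rb are near copies, as are C4b and C4a, so their counts are uncertain. The C1 inhibitor Serping1 (0.72) and the copper carrier Cp (0.76) did not pass 2-fold. Cell by cell, 0 of 42 ACD cells were above the highest control cell for C4b and 5 for C3, next to 26 for H2-D1.

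Chil1, a secreted chitinase-like protein of chondrocytes and inflamed tissue, had the next highest ratio after the 12 leading genes and was named after its values were seen. It was 156 (127.4 to 188) and 1848 (1716 to 1988) CPM, a log2 ratio of 3.49, found in 36 of 88 and 30 of 42 cells. The cell with the most Chil1 held 17.2% of the ACD UMIs, and 14 of 42 ACD cells were above the highest control cell. In thinned cells the share with Chil1 was 16.1% and 52.4%, against 2.75% and 6.28% of Ptprc-positive cells. It was 37.6% and 54.7% in set P and 8.96% and 35.7% in set A, so it was higher in ACD in those sets too.

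**Figure D4:**
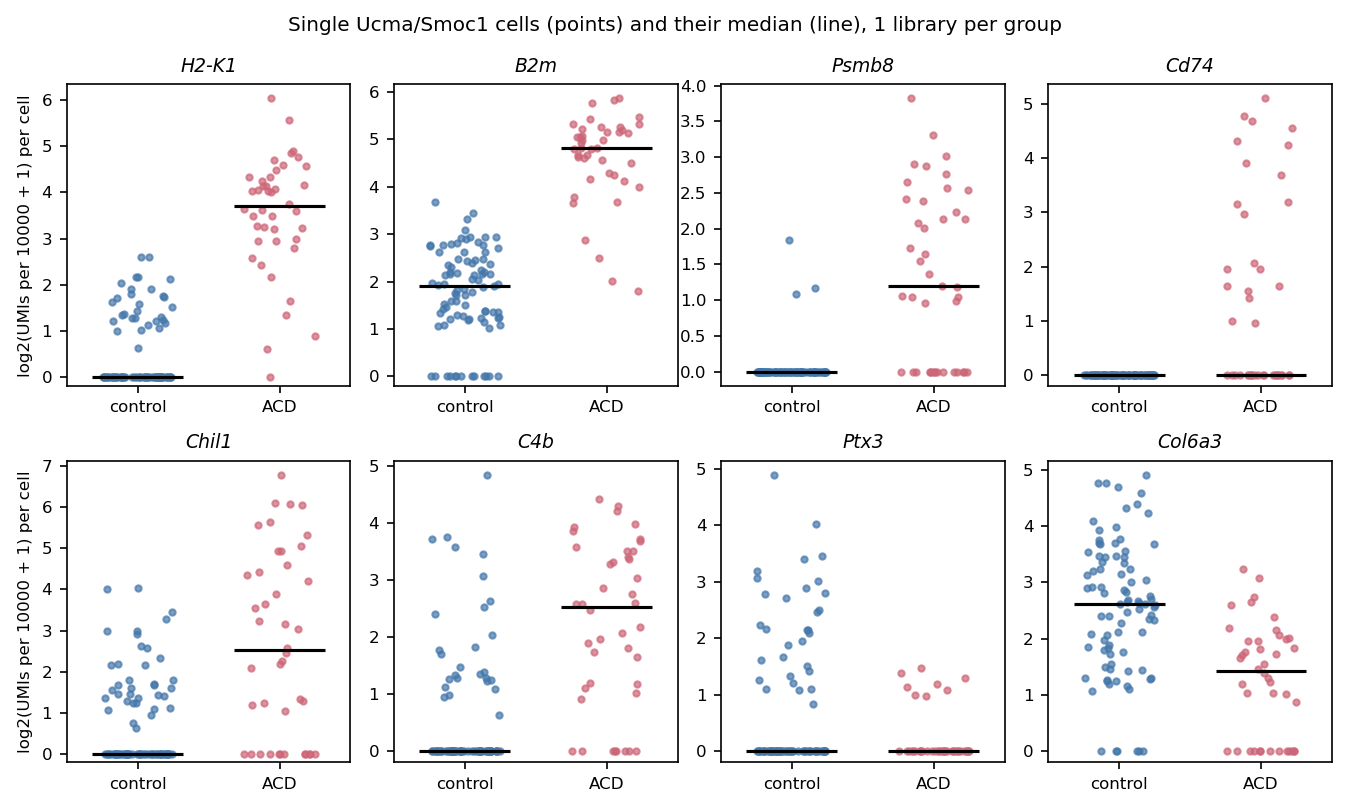
Log2(UMIs per 10000 + 1) of 8 genes in each Ucma/Smoc1 cell, 88 control and 42 ACD, with the median as a line. H2-K1 and B2m hardly overlap between the libraries, whereas Cd74 and Chil1 spread from 0 to high values in ACD. Col6a3 sits lower in ACD, and for Ptx3, with a median of 0 in both libraries, the high values are those of control cells.

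Several of the highest ratios rested on single cells. Hba-a1 (25 and 4928 UMIs, 8.08), Hbb-bs (36 and 5927, 7.91) and Hbb-bt (2 and 1206, 7.90) encode haemoglobin chains and have near-identical copies. Without the 2 haemoglobin-rich cells, an alternative chosen after seeing the data, they were at 0.24, 0.31 and 0.28. Gpx3, a secreted peroxidase (3.64), went to 1.43 and Col9a3 (1.30) to 0.27. The chemokines Ccl4 (0 and 315 UMIs, 6.35) and Ccl3 (0 and 130 UMIs, 5.10) had 98.1% and 98.5% of their UMIs in 1 cell, and Srgn, a leukocyte granule proteoglycan (2.35), was at 0.48 without its top cells. H2-K1, B2m and Psmb8 kept ratios of 4.01, 3.04 and 4.12 without their top cells.

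Of 15 measured collagens (20 listed), 0 were higher and 4 at least 2-fold lower, with a median of -0.67, and the 20 summed to 17011 and 10645 CPM. The same sum was also lower in the ACD library in Ptprc-positive cells (7669 and 3640) and in Pdgfra-positive cells (57978 and 35060). Col6a3, a chain of the beaded type VI collagen around cells (chr1:90765923-90843971), was 644 (585 to 708) and 189 (149 to 238), a log2 ratio of -1.72. It was found in 82 of 88 and 29 of 42 cells, and 38 of 42 ACD cells were below the control median. In thinned cells the share with Col6a3 was 60.9% and 28.6%, against 8.69% and 6.23% of Ptprc-positive cells.

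The partner chain Col6a2 was 1135 and 483 CPM (-1.21) and Col6a1 was 1682 and 841 (-0.99). Col5a1, a regulatory chain of collagen fibrils (140 and 25 UMIs), was at -1.54. Col1a1, of type I collagen, was 1980 and 984 (-1.0), near its 1480 and 592 in Ptprc-positive cells, and 26 of 42 ACD cells were below the control median. Col3a1 (-0.77) and Col1a2 (-0.85) did not pass 2-fold. Dcn (0.04) and Lum (0.18), the proteoglycans that bind collagen fibrils, stayed within 2-fold.

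The lowest ratio, that of Coch (241 and 4 UMIs, -4.17), rested on 1 control cell with 95.4% of its UMIs and was -0.58 without it. Ptx3, a secreted pattern-recognition protein, was 173 (143 to 207) and 23 (10.5 to 43.7) CPM (-2.47), found in 31 of 88 and 8 of 42 cells. Tgfbi, a matrix protein induced by TGF-beta, was 139 and 23 (-2.18), found in 38 and 9 cells. Sfrp2, a secreted Wnt modulator (-2.42), had its 123 control UMIs in 9 cells. Postn, a fibroblast matrix protein (61 and 5 UMIs, -2.13), was below the free-RNA level, the 251 and 91.4 CPM of Ptprc-positive cells. Also among the 12 lowest were Cilp (-1.99), Sbsn (-2.02), Ddx21 (-1.64), Enpp2 (-1.60) and 1520401A03Rik (-1.56).

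The lower genes depended on the rule more than the higher ones. Without the Pdgfra condition there were 239 control and 135 ACD cells, 1 more in each library than the members and the cells above, since a cell tied between U and a second set was counted. Then 31 of the 42 higher genes and 9 of the 53 lower genes were still past 2-fold, and with the rule applied to cells thinned to 3000 UMIs, 28 and 8 were. H2-K1 was then at 4.01 and 3.52, B2m at 3.0 and 2.71 and C4b at 2.19 and 2.03. Col6a3 stayed past 2-fold at -1.09 and -1.29, Col6a2 was at -0.55 and -0.72, Col1a1 at -0.41 and -0.71, and Ptx3 at -1.01 and -0.34.

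The other gated sets of the same libraries were set beside these ratios. H2-K1 was at 4.02 in Ucma/Smoc1 cells, 3.52 in A, 3.40 in G, 2.82 in P and 2.08 in M, so it was higher in ACD in all 5 sets. B2m was at 3.03, and between 2.07 and 2.40 in the others. The median of the class I list was 1.54, next to 1.45 in A, 1.27 in G, 0.97 in M and 0.79 in P. Col6a3 was at -1.72, against -0.52 in A, -0.37 in M, -0.13 in P and 0.12 in G, and Tgfbi was at -2.18, against -0.67 in G, -0.47 in P, 0.04 in A and 0.82 in M. These differences between sets were not tested.

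**Figure D5:**
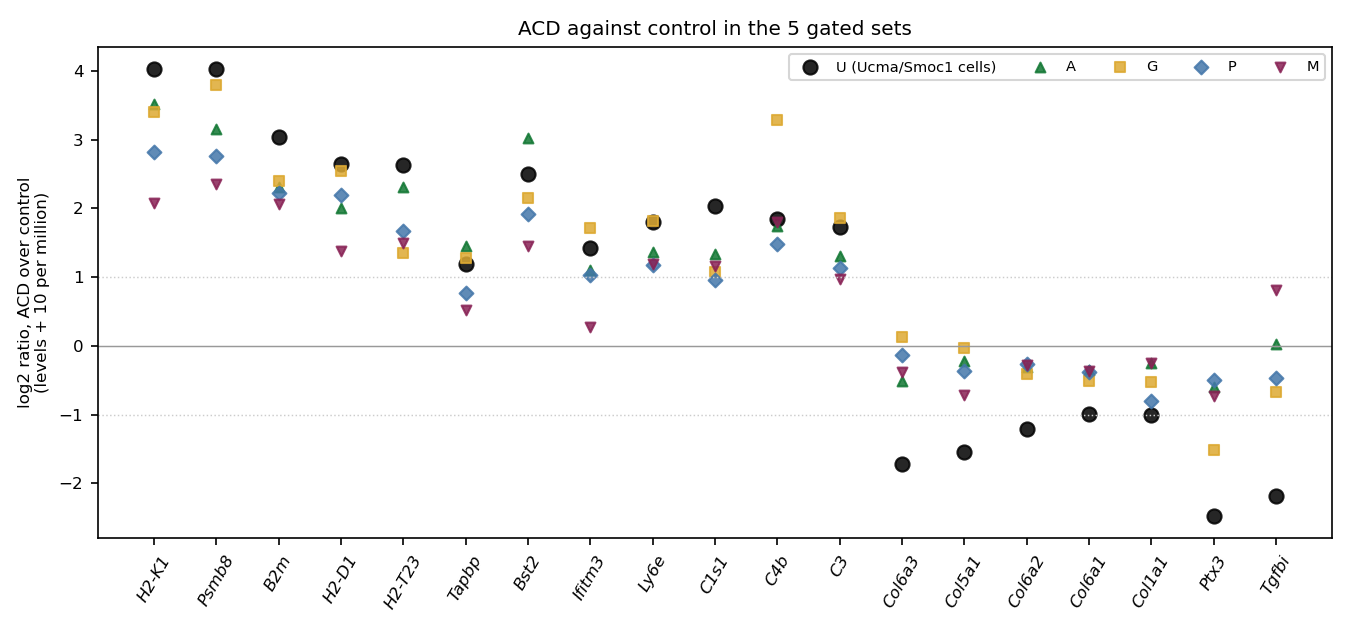
Log2 ratio of ACD over control (10 CPM added) of 19 genes in Ucma/Smoc1 cells and in sets M, P, A and G, 1 point per set. H2-K1 lies between 2.08 and 4.02 in the 5 sets, while Col6a3 is at -1.72 in Ucma/Smoc1 cells and between -0.52 and 0.12 in the others.

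The remaining lists are read against the 1.35% higher and 1.7% lower of all genes. In such short lists a count of 0 or 1 is given as a description only. Of 22 measured genes of the BMP and TGF-beta list, 0 passed 2-fold in either direction, with a median of -0.05. The BMP target genes Id1 (0.80), Id2 (0.70) and Id3 (0.38) and Bmp2 (-0.26) stayed within it, as did Tgfb2 (-0.90). The 6 measured genes of the Gla and vitamin K list had a median of 0.17 and 0 past 2-fold. Among them were Mgp, an inhibitor of calcification (0.45), Gas6 (0.09) and Ucma (0.14). Ucma chose the cells in both libraries, so its ratio and its part in the count and median are a description only. Of 11 Wnt genes only Sfrp2 passed, and of 16 genes of the FGF, IGF and hedgehog list 0 did (Igfbp2 0.80, Igf1 -0.79). Of 15 measured cartilage matrix genes that the rule did not use, 0 were higher and the median was 0.14. Cilp was lower (0.44 with the rule applied after thinning). Of 16 elastic fibre genes Loxl2 was lower (-1.26), and of 15 chondrocyte transcription factors, 19 ER stress genes and 6 cell cycle genes 0 passed.

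Of 12 measured genes of the NF-kB, IL-1 and IL-17 list, 0 passed 2-fold, with a median of -0.30 and Nfkbiz, an IL-17 and IL-1 target, at -0.92. Of 20 protease and inhibitor genes, 3 were lower, among them Mmp3 (-1.2) and Adamts2 (-1.10, but 0.27 with the rule applied after thinning). Of 32 immediate-early and heat-shock genes, the chaperones Hspb1 (1070 and 2372 CPM, 1.14) and Hspa1b (750 and 1536, 1.02) were higher, and the list's median was 0.01. In the oxidative stress list, Gpx3 was higher and Keap1, the sensor of electrophiles, lower (-1.29) of 19 measured genes, with a median of -0.13. Of 19 hypoxia and glycolysis genes, Ddit4, an inhibitor of mTORC1, was higher (1.17), with a median of -0.10.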

How the data were processed

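The authors generated 2 droplet libraries of ear skin (control and ACD, Chromium 3′ chemistry) and deposited UMI counts per gene and barcode, 27998 genes, not normalized. The files' headers and the submitters' processing notes give Cell Ranger 3.1.0 and mm10 (mm10-1.2.0), and the methods name another version. Cells kept had 201 to 4999 genes, at most 25000 UMIs (the methods print it as a lower limit) and under 8% mitochondrial UMIs. This left more cells than the study states.

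The cells and gene lists were chosen with earlier results of these data known. Levels are UMI sums per 1000000 with exact Poisson intervals and shares have Clopper-Pearson intervals, both at 95%. Log2 ratios had 10 UMIs per 1000000 added on each side, for genes with at least 50 UMIs, and called means at least 2-fold. As each group was 1 library, no test was run. Shares with a UMI used cells thinned to 2000 UMIs. Neighbours were the 20 nearest in 30 principal components of 2000 variable genes. Genes named were those of the rule, the 12 highest and 12 lowest ratios, the 15 highest and 10 lowest against the other sets (by the smaller of the libraries' ratios), in each list the 4 farthest from 0 and central genes, and the 5 most like Ucma. Those named outside it are marked in the text, and some results under the rule are not reported here. The main values include all cells, with no doublet caller applied. Scrublet marked 560 (4.59%) control and 392 (3.36%) ACD cells, 3 and 1 of them members, and leaving these out was an alternative.

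The 14 alternatives changed the gate, the rule's limits, the filter, doublets, scaling, added UMIs, minimum counts and fold, and 3 more were chosen after seeing the data. Positions are those of GENCODE M21 on GRCm38 (27722 of 27998 identifiers found), promoters those of RefSeq on GRCm38.p6. Scripts were tested on simulated data. Python 3.11.15 was used with numpy 2.4.6, pandas 2.3.3, scipy 1.17.1, scikit-learn 1.9.0, scanpy 1.11.5 and matplotlib 3.10.9.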

Additional observations from a re-analysis of the deposited data

How the results depend on the processing

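No paired analysis was possible because each group was 1 library. Counting intervals do not cover differences between animals, and leaving out a library leaves no comparison. The share of Ucma/Smoc1 cells among kept cells was 0.499% in the control and 0.206% in the ACD library with a gate of 10 UMIs, 1.96% and 1.16% without the Pdgfra condition, and 1.23% and 0.644% with the rule applied after thinning to 3000 UMIs. It stayed higher in the control, but Ptprc-positive cells took 7.95% and 35.9% of kept cells. Over gated cells the main shares had overlapping intervals, and those of the alternatives are not reported here. Genes at least 2-fold higher and lower numbered 72 and 27 without the Pdgfra condition, 86 and 166 with at least 20 UMIs, 192 and 305 with at least 1 UMI, and 132 and 349 at a fold of 1.5. With 1 UMI per 1000000 added, 87 were lower, and with median-of-ratios scaling, which moved the median of all genes from -0.12 to 0, 35 were lower and the 42 higher genes were all still past 2-fold. Looser limits admit more genes by construction, and the cause of the other shifts was not tested. Of 1157 alternative ratios of 89 genes, 929 moved by less than their counting interval, 224 by more and 4 changed sign: 1520401A03Rik to 0.69 under a stricter filter on cells, and Cilp to 0.44, Adamts2 to 0.27 and Coch to 2.60 with the rule applied after thinning. Of 116 alternative shares with a UMI, 78 moved and 0 reversed. Of the 42 higher and 53 lower genes, 33 and 39 were still past 2-fold without the haemoglobin-rich cells, 33 and 36 without Scrublet calls, 35 and 40 with at least 3 genes of set U found, and 26 and 27 with a gate of 10 UMIs.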
